A study of Danio rerio with 4 samples.

Results

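Zebrafish genes of cytochrome P450 families 1 to 4 were followed at 5 dpf in heads of noc4l mutants and their siblings. A gene was taken as a member when its symbol in the ribosome footprint table began with cyp, a digit from 1 to 4 and a letter, and it was joined to the RNA table by its gene ID. The rule took 55 of the 25196 genes of the footprint table, and all 55 were also in the RNA table. Family 1 had 4 members, family 2 had 42, family 3 had 5 and family 4 had 4, in 21 subfamilies. The members carried 51 symbols, since 4 symbols (cyp2k6, cyp2x10.2, cyp2y3 and cyp3c3) each stood for 2 gene IDs.

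Cytochromes P450 of these families are heme enzymes of the endoplasmic reticulum that insert an oxygen atom into small hydrophobic molecules, using electrons passed on by NADPH-cytochrome P450 reductase. Families 1 to 3 oxidise drugs, pollutants, steroids and polyunsaturated fatty acids, and family 4 hydroxylates fatty acids near the end of the chain. Some family 1 genes, such as cyp1a, are known targets of the aryl hydrocarbon receptor. In vertebrates liver and intestine are the main sites of the drug-metabolising members, although some family 1 and 2 enzymes are made in eye, brain and gill.

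RNA was sequenced (RNA-seq) and ribosome-protected fragments, here called footprints, were sequenced (Ribo-seq) from heads of siblings and of noc4l mutants of the AB strain. The mutants carry a small CRISPR/Cas9 deletion in the fourth exon of noc4l, which encodes a nucleolar factor of small ribosomal subunit production, on both copies. The sibling libraries are labelled WT in GEO. Whether siblings included heterozygotes, and how many heads were pooled, is not stated in the sources used here, and the heads for the 2 assays were collected separately. Each of the 4 groups has 1 library, so differences have no replicate check and none was tested. A value is called higher or lower here at a ratio of 2 or more between the mutant and the sibling library, after scaling by TMM (trimmed mean of M values), among genes whose counts in both libraries of an assay sum to 100 or more. Intervals are 95% intervals for counting error and do not measure the spread between fish.

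Library totals were 15018488 and 17395024 estimated counts in the sibling and mutant RNA libraries, and 12181046 and 19823848 in the sibling and mutant footprint libraries. The disrupted gene, noc4l, had 443 sibling and 45 mutant RNA counts, and 93 and 15 footprint counts. Its log2 ratio, mutant over sibling, was -3.58 in RNA (-4.07 to -3.15) and -4.01 in footprints (-4.94 to -3.25). All 16 markers of brain neurons looked up were measured in both assays and took 0.244% of the sibling RNA library. The libraries labelled head also held RNA of trunk organs, as markers of exocrine pancreas took 0.862% of the sibling RNA library. Genes looked up as liver markers took 2.55%. Those with the most sibling counts were apolipoprotein genes, namely apobb.1 (95199), apoa1b (85249) and apoa2 (55361), and the intestine markers hold apolipoprotein genes too. The 2.55% is thus the share of a gene list and does not measure liver content. Neuron markers alone do not tell heads from whole larvae.

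Most P450 RNAs of families 2, 3 and 4 were lower in the mutant library, and those of family 1 mostly were not. Of the 39 members with enough RNA counts, 26 were lower and 0 were higher, against 6.16% of all measured genes lower and 3.14% higher. Family 1 had 1 of 4 lower, family 2 had 19 of 28, family 3 had 3 of 4 and family 4 had 3 of 3. The median log2 ratio was -0.03 in family 1, -1.64 in family 2, -2.65 in family 3 and -3.62 in family 4, beside 0.01 over all 17243 genes. Single members ranged from -6.43 (cyp2n13) to 0.79 (cyp1c2). The counting interval lay below 0 for 33 of the 39 members, above 0 for 1 and held 0 for 5. In bulk samples such as these, fewer cells of a type and less RNA per cell cannot be told apart.

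**Figure D1:**
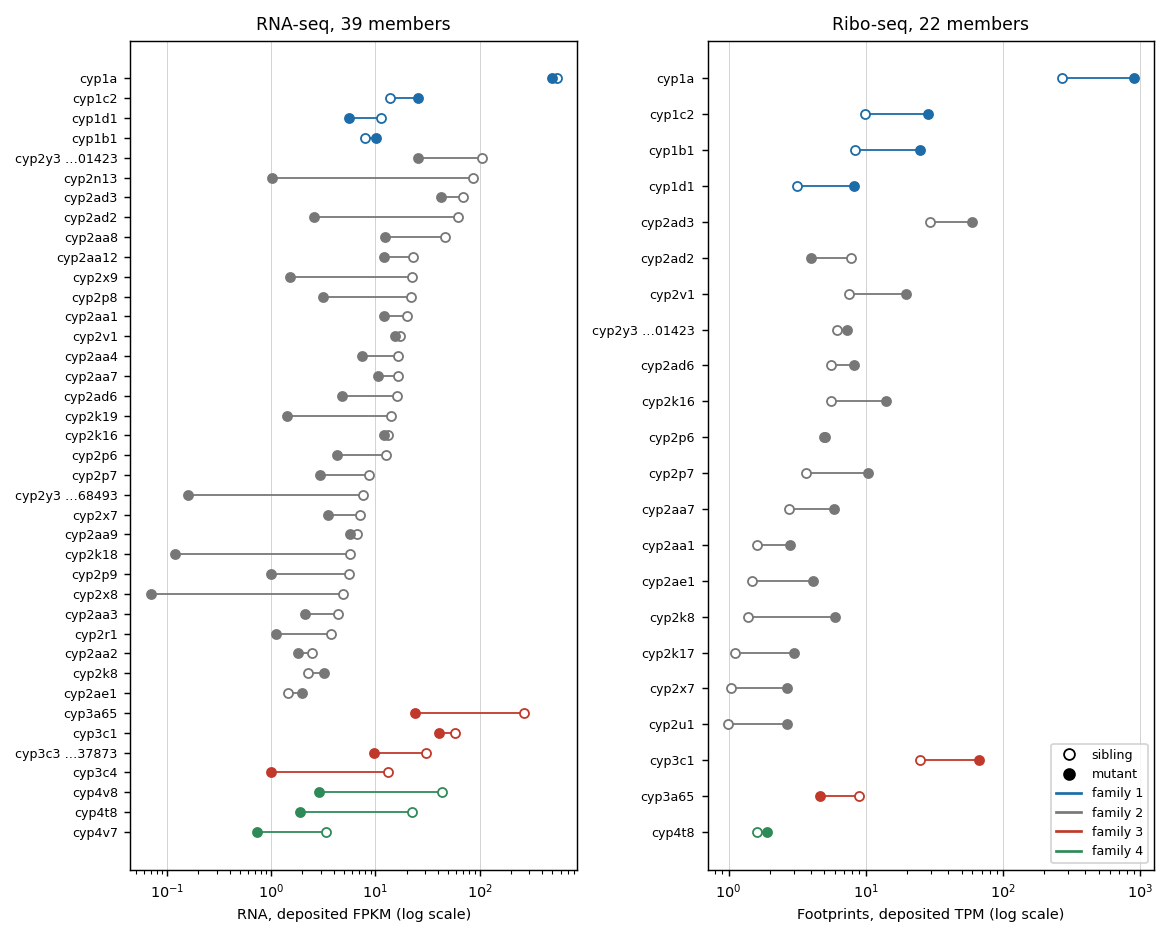
RNA levels (left, deposited FPKM) and footprint levels (right, deposited TPM) of the members with at least 100 counts in that assay, on log axes. Open points are the sibling library and filled points the mutant library, and colours mark the families. In RNA the filled points of families 2 to 4 mostly lie left of the open ones, whereas cyp1a stays at 551 and 499 FPKM. In footprints most filled points lie to the right, on a unit in which the median log2 ratio of all genes was itself 0.95 with 1 TPM added.

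**Figure D2:**
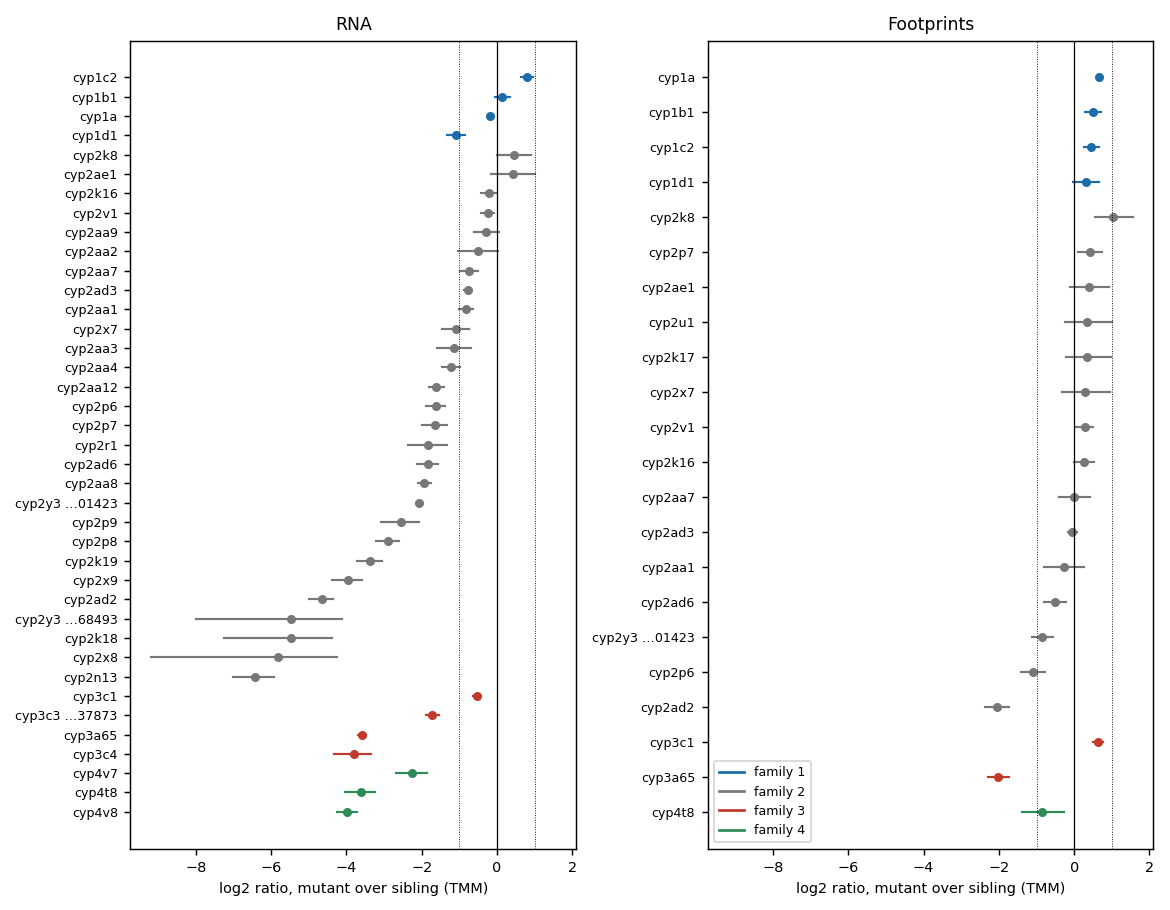
The log2 ratio of mutant to sibling for each member with at least 100 counts, in RNA (left, 39 members) and in footprints (right, 22 members), after TMM scaling. Points are the single ratios, bars are 95% counting intervals, colours mark the families, and dotted lines mark ratios of 2 in either direction. In RNA 26 members lie past the lower line and 0 past the upper one, and in footprints 3 and 1.

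Summed over its members, each family took a smaller share of the mutant than of the sibling RNA library, family 1 least so. All 55 members took 0.350% of the sibling RNA counts and 0.182% of the mutant ones. Family 1 held 0.136% and 0.128%, family 2 held 0.122% and 0.0383%, family 3 held 0.0752% and 0.0149%, and family 4 held 0.0165% and 0.00145%. The log2 ratios of these sums were -0.17, -1.76, -2.42 and -3.59, in the order of the families. cyp1a, with nearly equal levels, made up 33.1% of the summed FPKM of the members in siblings and 60.4% in mutants. FPKM corrects for gene length and so allows levels of different genes to be set side by side.

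Family 1 holds the classical targets of the aryl hydrocarbon receptor. cyp1a, the inducible enzyme that oxidises planar aromatic pollutants, was the most abundant member in RNA, with 19234 counts (551 FPKM) in siblings and 20567 counts (499 FPKM) in mutants. The levels were close, with a log2 ratio of -0.20 (-0.23 to -0.17). cyp1b1, whose human counterpart is linked to eye development, had 342 and 464 RNA counts (0.15, -0.06 to 0.35), an interval that holds 0. cyp1c2 had 456 and 967 counts and was the one of the 39 measured members whose RNA interval lay above 0, at 0.79 (0.63 to 0.95). cyp1d1 went the other way, with 393 sibling and 228 mutant counts (-1.08, -1.32 to -0.84), and was the member nearest to the limit of 2-fold among those called lower. The member just short of it was cyp2aa1, at -0.82. With scaling by total counts the log2 ratio of cyp1d1 was -0.996, which no longer passes.

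In footprints 0 of the 4 family 1 genes reached a ratio of 2, with all 4 ratios above 0 on the log2 scale. With scaling by total counts, where 22.1% of all genes were called higher, all 4 were. cyp1a had 7963 sibling and 33718 mutant footprint counts, with a log2 ratio of 0.67 (0.63 to 0.70) after scaling. cyp1b1 had 251 and 943 (0.49, 0.29 to 0.70), and cyp1c2 had 256 and 935 (0.45, 0.25 to 0.66). cyp1d1, lower in RNA, had 92 and 305 footprint counts (0.31, -0.03 to 0.67). Raw footprint counts cannot be read side by side, since the mutant footprint library was the deeper one. The 4 most abundant footprint loci also took a larger part of the sibling library. All members held 0.0998% of sibling footprint counts, and 0.204% with those loci left out. In mutants these shares were 0.223% and 0.275%.

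Family 2 is by far the largest, and its members ranged from near-equal RNA levels to the lowest ratios of all. cyp2y3 (ENSDARG00000101423) had the most RNA of the family in siblings, with 3386 counts (106 FPKM), beside 994 counts (25.8 FPKM) in mutants, and a log2 ratio of -2.06 (-2.17 to -1.96). The second gene under that symbol, ENSDARG00000068493, had 127 and 3.01 counts (-5.48). cyp2n13 had 2147 sibling (86.1 FPKM) and 30 mutant counts (1.03 FPKM) and was 86.3-fold lower (log2 ratio -6.43, -7.03 to -5.94). Only 26 of the 17243 measured genes had a lower RNA ratio, as cyp2n13 stood at rank 27. cyp2ad2 had 1764 and 85 counts (61.8 and 2.57 FPKM) and was 25.3-fold lower (-4.66, -5.001 to -4.35). By contrast cyp2ad3, of the same subfamily and with a similar sibling level, had 1950 and 1394 counts (69.3 and 42.7 FPKM; -0.78, -0.88 to -0.68), did not reach 2-fold and had the most RNA of family 2 in mutants.

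Subfamilies of family 2 thus differed in how far they lay from equality. All 4 measured cyp2p genes were lower, at a median of -2.10 on the log2 scale, and so were all 3 measured cyp2x genes (median -3.96). Over all measured genes 6.16% were lower in RNA. Of 8 measured cyp2aa genes 4 were lower and all 8 had ratios below 0 (median -0.98, -1.93 to -0.28). The cyp2k genes were the most varied, from cyp2k18 at -5.49 to cyp2k8 at 0.44. cyp2k18 had 200.4 sibling and 5 mutant counts, and cyp2x8 had 115 and 2 (-5.82, -9.20 to -4.25), so that these ratios rest on very few mutant reads. cyp2k8 had 66 and 110 counts, and its interval of -0.01 to 0.91 holds 0. cyp2ae1 had 42 and 69 counts (0.42, -0.15 to 1.01). cyp2r1, related to the human vitamin D 25-hydroxylase, had 131 and 45 (-1.83, -2.36 to -1.34). cyp2k16 (-0.22), cyp2v1 (-0.24) and cyp2aa9 (-0.28) had nearly equal levels.

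In family 3, cyp3a65 carried most of the RNA in siblings, and cyp3c1 had the most in mutants (41.1 FPKM). cyp3a65 is the zebrafish CYP3A drug-metabolising enzyme of intestine and liver and was the second most abundant member of the sibling library, with 8180 counts (269.6 FPKM), beside 837 counts (23.8 FPKM) in mutants. It was 11.98-fold lower (-3.58, -3.69 to -3.48) and moved from second to sixth place among the members. The cyp3c genes ran from cyp3c4, with 459 and 40 counts (-3.80, -4.32 to -3.35), through cyp3c3 (ENSDARG00000037873), with 1022 and 379 (-1.72, -1.90 to -1.55), to cyp3c1, with 1575 and 1332 (-0.54, -0.64 to -0.43). cyp3c1 alone of the measured family 3 genes was not called lower. The other gene listed as cyp3c3, ENSDARG00000037874, had 51 and 6 counts, which is under the count minimum.

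All 3 measured genes of family 4 were lower in RNA, beside 6.16% of all measured genes. cyp4v8, of the subfamily of the human fatty acid hydroxylase mutated in a retinal dystrophy, had 1627 sibling (43.6 FPKM) and 126 mutant counts (2.91 FPKM) and was 15.8-fold lower (-3.98, -4.26 to -3.72). cyp4t8 had 608 and 60 counts (-3.62, -4.04 to -3.25). cyp4v7 had 239 and 61 (-2.25, -2.69 to -1.85). The fourth, cyp4f3, had 8 and 5 counts, too few to be measured.

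Of the members, 36 lie in 5 runs of neighbouring P450 genes in the RefSeq gene order of assembly GRCz12tu. That annotation was used here only for gene order and for overlaps between members. Another protein-coding gene may lie between members of a run, so order and distance here count members only. Neighbours did not share one ratio. The longest run, of 11 members, begins with cyp2n13 at -6.43 and also holds cyp2v1 at -0.24, 3 members away. In this run 7 of 9 measured genes were lower (median -1.84). The run of cyp2aa genes had 4 of 8 lower (median -0.98), the run of cyp2x genes 3 of 3 (-3.96), the run of cyp2k genes 2 of 4 (-1.80) and the run of cyp3c genes 2 of 3 (-1.72). The share of all measured genes lower in RNA was 6.16%. In the cyp2k run the ratio went from -5.49 at cyp2k18 at one end to -0.22 and 0.44 at cyp2k16 and cyp2k8. Members in each run belong to the same P450 family, and how alike their sequences are was not measured. How reads that match several of them were handled is not stated in the sources used here. Many estimated counts are fractions, so values of any neighbours alike in sequence are uncertain.

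**Figure D3:**
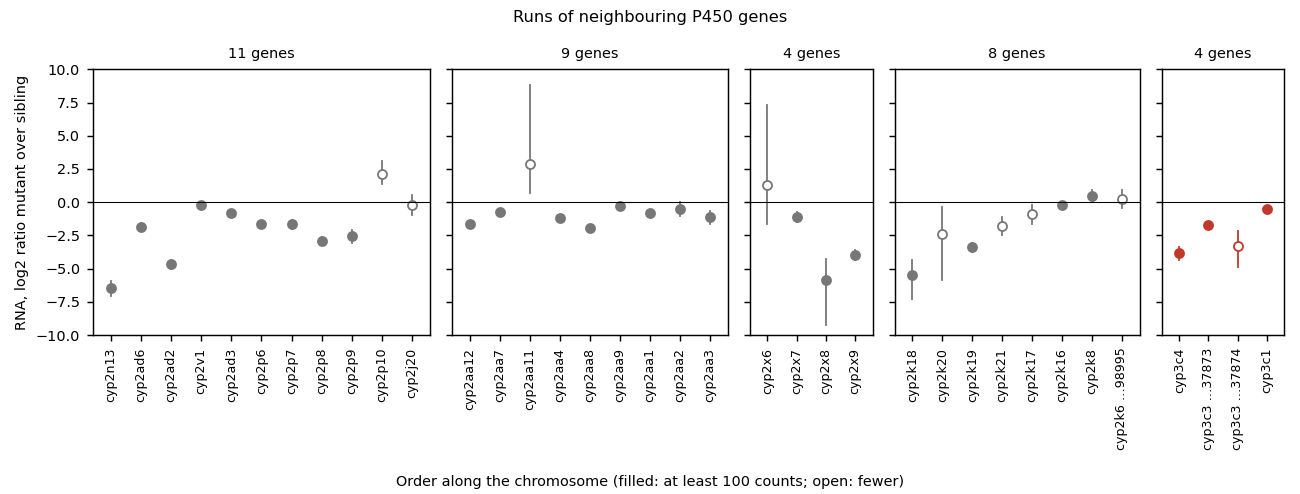
RNA log2 ratio of mutant to sibling for the 36 members in the 5 runs of neighbouring P450 genes, in their order along the chromosome (spacing not to scale). Filled points have at least 100 counts and open points fewer, and bars are 95% counting intervals. In the first run the ratio goes from -6.43 at cyp2n13 to -0.24 at cyp2v1 within 4 members, and cyp2p10 (open, 15 and 83 counts) lies above 0.

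In footprints the members looked different from RNA. Of the 22 members with enough footprint counts, 3 were lower and 1 was higher, beside 3.61% and 1.89% of all measured genes. The median log2 ratio was 0.28 (range -2.05 to 1.02), beside 0.02 over all 15729 genes. By family it was 0.47 for the 4 genes of family 1, 0.25 for 15 genes of family 2, -0.69 for the pair of family 3 genes and -0.85 for cyp4t8, the one measured gene of family 4. The family 3 and 4 values rest on these few genes, and with a minimum of 10 counts they were 0.23 over 5 genes and -1.92 over 4. The log2 ratio of the summed footprints of all members of a family was 0.65 in family 1, -0.25 in family 2, 0.08 in family 3 (-0.03 to 0.20) and -2.11 in family 4. Intervals lay below 0 for 6 members, above 0 for 7 and held 0 for 9. With scaling by total counts the median of all genes moved to 0.74, so that the footprint values are read relative to that of all genes.

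The 3 genes lower in footprints were also lower in RNA. cyp2ad2 had 218 sibling and 140 mutant footprint counts, with a log2 ratio of -2.05 (-2.37 to -1.74). cyp3a65 had 262 and 173 (-2.01, -2.30 to -1.73). cyp2p6 had 154 and 191 (-1.10, -1.41 to -0.78), was closest to the 2-fold limit and stood at -0.39 with scaling by total counts. Just short of the limit was cyp4t8, with 47 and 70 counts (-0.85, -1.40 to -0.28). cyp2y3 (ENSDARG00000101423) had 174 and 258 (-0.85, -1.13 to -0.56). The gene that was higher in footprints was cyp2k8, with 40.0 and 219 counts (1.02, 0.55 to 1.56), and it no longer passed at 0.98 when 2 counts were added in place of 0.5. cyp2p7, with 104 and 373 counts (0.41, 0.10 to 0.75), and cyp3c1, with 516 and 2133 (0.63, 0.49 to 0.77), had intervals above 0 although their RNA intervals lay below 0. The same held for cyp1a (0.63 to 0.70 in footprints, -0.23 to -0.17 in RNA) and for cyp2v1 (0.06 to 0.50 and -0.41 to -0.07).

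These counts depend on which members had enough footprints. The 33 members under the footprint minimum had summed counts of 0 to 82.9, and for 14 of them the interval of the ratio lay below 0, for 0 above it. Among these were cyp4v8, with 78 and 3 counts, cyp3c3 (ENSDARG00000037873), with 45.1 and 15.5, cyp2n13, with 45 and 29, and cyp4v7, with 33 and 24. cyp2k18 had 16.7 and 0 footprint counts and was 14.8-fold lower when 3 counts stood in for the 0, while the counting interval of its log2 ratio reaches up to -3.43. When the minimum was set at 10 counts, 18 of 44 members were lower in footprints and 1 was higher, beside 7.42% and 4.57% of all genes, and the median of family 2 was -0.85. The mutant footprint library was the deeper one, so a gene lower there was less likely to reach 100 counts.

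Translation efficiency, the footprint level over the RNA level, compares both assays for the 20 members with at least 100 counts in each. None was lower (0) and 9 were higher in the mutant, beside 3.18% and 3.55% of all genes. The median of the log2 efficiency ratio was 0.80 in these members and -0.01 over 14455 genes, and the interval lay above 0 for 17, below 0 for 1 and held 0 for 2. In the same 20 genes the median was -0.80 in RNA and 0.26 in footprints. Since RNA is the denominator, a gene lower in RNA and less so in footprints has a higher efficiency by construction. In siblings the marker lists of liver, intestine and pancreas took 2.55%, 1.07% and 0.862% of RNA counts. Of footprint counts they took 0.237%, 0.0623% and 0.0575%. Neuron markers took 0.244% of RNA and 0.262% of footprint counts. The median log2 efficiency ratio was -1.72 for 25 liver markers, 0.25 for 14 intestine markers and -0.45 for 13 pancreas markers. In that order 16, 2 and 3 markers were lower in efficiency, and 1, 4 and 1 were higher. Heads for the assays were collected separately, so unequal organ content between assays and a change in translation cannot be told apart. Medians were 0.60 in family 1, 0.72 in family 2, 1.37 in family 3 and 2.78 for cyp4t8, the one gene of family 4. With a minimum of 10 counts the median of family 4, then over 4 genes, was -0.33, and 16 of 44 members were higher and 8 were lower, beside 7.36% and 7.1% of all genes.

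**Figure D4:**
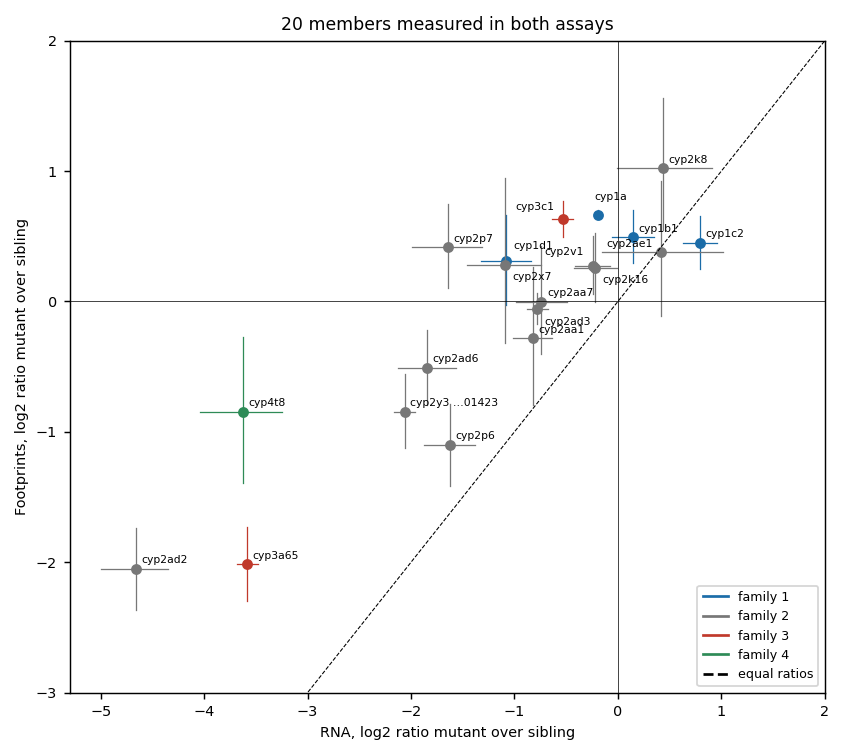
Footprint log2 ratio of mutant to sibling against the RNA log2 ratio for the 20 members with at least 100 counts in both assays. Bars are 95% counting intervals, colours mark the families, and the dashed line marks equal ratios, that is, equal translation efficiency. Of the 20 points 18 lie above the line, and 3 lie below -1 on both axes.

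Of the 26 members lower in RNA, 9 had enough footprints, and 8 of these had a higher translation efficiency, beside 3.55% of all measured genes. The 9 were picked by a low RNA ratio, which is the denominator, so a higher efficiency was favoured in advance. The largest values were those of cyp4t8 at 2.78 (2.12 to 3.43), cyp2ad2 at 2.61 (2.17 to 3.05), cyp2p7 at 2.06 (1.61 to 2.51) and cyp3a65 at 1.57 (1.27 to 1.86). cyp2p6 had the smallest of the 9, at 0.53 (0.14 to 0.92). cyp1c2, with the highest RNA ratio, had the lowest efficiency ratio of all 20 members, -0.34 (-0.59 to -0.08). Of the 17 genes lower in RNA and under the footprint minimum, the footprint interval lay below 0 for 12 and above 0 for 0, and 1 had no footprint. Leaving out the 1 with no footprint, the interval of translation efficiency lay above 0 in 5, below 0 in 2 and held 0 in 9. cyp4v8 was one of those below 0, at -1.92 (-3.49 to -0.36).

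In the sibling library most members had few footprints for their RNA. The median log2 of footprint to RNA level was -0.90 in the 20 members, beside -0.44 over all genes, and 16 of the 20 lay below that. In the mutant library it was -0.11, beside -0.44, and 7 of 20 lay below. cyp3a65 had the lowest value of the 20 in each genotype, -4.34 in siblings and -2.78 in mutants. Markers of trunk organs had low values too, with a median of -2.77 and -4.59 for 25 liver markers and -3.998 and -3.39 for 14 intestine markers, in the sibling and the mutant library. For the 16 neuron markers the medians were 0.34 and 0.54. In siblings the median was -0.93 for 10 endothelial and -0.86 for 9 kidney markers, close to that of the members. It was -0.48 for 7 markers of swim bladder and gill and -0.40 for 10 P450 genes of other families. The sibling value of the members was thus not particular to them or to markers of digestive organs.

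Genes that mark liver, intestine and pancreas were also lower in the mutant libraries. In RNA this was so for 17 of 29 liver genes, with 1 higher (median -1.10), for 20 of 24 intestine genes, with 0 higher (median -2.24), and for 18 of 18 genes of exocrine pancreas (median -4.68). The share of these marker lists in the RNA library went from 2.55% to 1.28% for the liver list, from 1.07% to 0.342% for intestine and from 0.862% to 0.0413% for pancreas. In footprints 22 of 25 liver, 9 of 14 intestine and 13 of 13 pancreas markers were lower, with medians of -2.99, -1.57 and -5.34. Over all genes 6.16% were lower in RNA and 3.61% in footprints. Liver genes differed widely in RNA, from -7.53 to 1.25 on the log2 scale, and 6 of the 29 had ratios above 0. The lowest was fabp10a, the fatty acid-binding protein that defines hepatocytes, with 5052 and 33 RNA counts, and the highest was cp. Of 16 neuron markers, 11 endothelial markers and 8 markers of swim bladder and gill, 0 were lower and 0 were higher in RNA, and of 12 kidney markers 2 were lower and 2 higher. The part that the content of digestive organs had in the P450 values was not tested.

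Most genes looked up as P450 regulators, electron donors or heme genes did not reach a ratio of 2 in RNA. The 30 measured regulators include the aryl hydrocarbon receptor and nuclear receptors. Of these 30, 1 was lower in RNA and 0 were higher, beside 6.16% and 3.14% of all genes (median -0.09). The one lower was nr1h4, the bile acid receptor FXR, with 146 and 81 counts (-1.14, -1.55 to -0.74). ahr2, the main aryl hydrocarbon receptor of zebrafish, had 2375 and 3952 RNA counts (0.44, 0.37 to 0.51), with a footprint ratio of 0.04 (-0.06 to 0.14). In footprints 0 of 25 regulators were lower and 2 were higher, beside 3.61% and 1.89% of all genes. Both that were higher are repressors of the aryl hydrocarbon receptor. ahrra had 30.5 and 170 footprint counts (1.04, 0.50 to 1.67), and ahrrb had 30 and 169 (1.06, 0.51 to 1.69). Both were close to the limit of 2-fold. Their RNA ratios were also above 0, at 0.997 (0.40 to 1.65) for ahrra and 0.74 (0.23 to 1.29) for ahrrb, short of that limit.

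Among 13 measured electron donors and their partners 3 were lower in RNA and 0 were higher, beside 6.16% and 3.14% of all genes (median -0.26). cyb5a, cytochrome b5, had 2309 and 1092 counts (-1.37, -1.48 to -1.27), pgrmc1 had 2092 and 1178 (-1.12, -1.23 to -1.02) and cyb5r2 had 433 and 93.2 (-2.50, -2.85 to -2.18). The reductase genes lay on both sides, with porb at -0.61 (-0.69 to -0.53) and pora at 0.49 (0.38 to 0.60). In footprints 0 of 12 were lower and 0 higher (median 0.03), beside 3.61% and 1.89% of all genes. Translation efficiency was higher in 2 of 12, cyb5a (1.56) and pgrmc1 (1.07), and lower in 0, beside 3.55% and 3.18% of all genes. The median log2 efficiency ratio of the 12 was 0.42, with 9 above 0 and 3 below. Of 13 genes of heme synthesis and breakdown 1 was lower in RNA and 0 were higher, near the shares over all genes. In footprints 0 of 12 were called, beside 3.61% lower and 1.89% higher over all genes. The heme gene lower in RNA was hmox1a, a heme oxygenase that breaks heme down, with 649 and 346 counts (-1.20).

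P450 genes of the other families make and break down steroids, bile acids, retinoids and vitamin D. They were lower in RNA in 5 of 18 measured cases, with 1 higher and a median log2 ratio of -0.35. Over all genes 6.16% were lower and 3.14% higher. The difference from families 1 to 4 was not tested, as genes of 1 library pair are not replicates. In footprints 0 of 10 were lower and 0 were higher (median 0.32), beside 3.61% and 1.89% of all genes. Their translation efficiency had a median of 0.33 in 10 genes, with 0 called in either direction. Over all genes 3.18% were lower and 3.55% higher in efficiency, so 0 of 10 is near these shares.

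For 16 members RNA counts were too few to be measured, with sums of 0 to 99.5. For 7 of these the interval of the ratio lay below 0, for 2 above 0 and for 7 it held 0. With a minimum of 10 counts, 31 members were lower in RNA and 2 were higher, beside 9.08% and 5.46% of all genes. The 2 above were cyp2p10, with 15 sibling and 83 mutant counts (2.14, 1.37 to 3.07), and cyp2aa11, with 1 and 13. By gene span in the RefSeq annotation, without regard to strand, cyp2p10 overlaps cyp2j20. The pairs cyp2ad2 and cyp2v1, cyp2v1 and cyp2ad3, and cyp2x10.2 and cyp2x12 overlap as well. Reads of these pairs may have been divided between them. No footprint was counted for 6 members in either library, and for 2 of these (cyp2k22 and the cyp2k6 gene ENSDARG00000009874) no RNA either.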

How the data were processed

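Heads at 5 dpf gave 1 RNA-seq and 1 Ribo-seq library per genotype. The authors deposited, per gene and library, an estimated count, which need not be whole, together with FPKM for RNA-seq and TPM for Ribo-seq. Their alignment and counting tools were HISAT2 and featureCounts, per the submitters' processing notes. Their versions, the build, the annotation, the strand setting and how multiply mapped reads were treated are not stated in the sources used here. GEO's protocol describes poly(A) libraries for all samples, whereas the study's methods have RNase-digested lysates and sucrose gradient centrifugation for Ribo-seq. Deposited columns with the authors' own comparison (log2 fold change, p-value, FDR) were not used. A row with no gene ID, 0.00303% of sibling and 0.000746% of mutant footprint counts, was left out. The tables give 26662 and 25196 gene IDs.

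Counts were scaled within each assay by TMM in edgeR 4.0.16 under R 4.3.3. The factors were 0.972 and 1.03 in RNA-seq and 0.781 and 1.28 in Ribo-seq, sibling first. Ratios were taken from CPM with 0.5 counts added. Translation efficiency was the footprint ratio over the RNA ratio. Intervals were exact conditional binomial for ratios, exact Poisson for counts, Clopper-Pearson for shares and from the Poisson error of the 4 counts for translation efficiency, all at 95%, for counting error only. With 1 library per group no test was made in any of the 3 comparisons. Other steps used Python 3.11.15, scipy 1.17.1, pandas 2.3.3, numpy 2.4.6 and matplotlib 3.10.9. The script was tested on simulated counts. Alternatives were total counts, DESeq2 1.42.0 size factors (on rounded counts), total counts without the 4 most abundant footprint loci, count minimums of 10 and none, deposited FPKM or TPM with 1 added, 2 counts added, and ratios of 1.5 and 3.

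Symbols come from the Ribo-seq table, as 53 of 55 members bear another name in the RNA-seq table. All 55 were found in a table of gene names and 52 in a RefSeq table of GRCz12tu. The latter gave the gene order and, from gene starts and ends without regard to strand, the overlaps between members. Sequences were not used. Values in every library are given for up to 4 members of each family with the most RNA and, per comparison and family, up to 3 with the largest ratio in each direction, and of other lists for the most abundant or most changed genes. Others were named after their values were seen. Members and lists were chosen with earlier results of these data known.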

Additional observations from a re-analysis of the deposited data

How the results depend on the processing

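The number of members lower in RNA was 26 of 39, and 22 to 32 under the 9 alternatives. The members counted were 51 with a minimum of 10 counts and 55 with no minimum. The share of all genes lower in RNA was 6.16%. Under the alternatives it ran from 3.21% at a ratio of 3 to 12.6% at a ratio of 1.5. DESeq2 size factors, and total counts without the 4 most abundant footprint loci, moved no count of members by over 1.5 times. With total counts, which shift the median of all genes to 0.74 in footprints and 0.62 in translation efficiency, 10 members were higher in footprints (22.1% of all genes) and 17 in translation efficiency (19.99%). With deposited FPKM or TPM and 1 added, where those medians are 0.95 and 0.86, 0 members were lower (0.782% of all genes) and 10 higher (44.6%) in footprints, and 18 higher in translation efficiency (36.4%). The 10 are of 22 measured members. With a minimum of 10 counts, 2 were higher in RNA (5.46%), 18 lower in footprints (7.42%), and 8 lower (7.1%) and 16 higher (7.36%) in translation efficiency. With no minimum, 3 were higher in RNA (7.07% of all genes), 25 lower (18.4%) and 2 higher (5.42%) in footprints, and 12 lower (16.8%) and 20 higher (9.91%) in translation efficiency. These counts hold genes without data. The 6 members with no footprint in either library stood at -1.42 from scaling alone and count as lower. In translation efficiency the 2 members with no count in either assay stood at -1.12 and count as lower too. With either lower minimum the family 4 median of translation efficiency was -0.33, against 2.78, as 4 genes entered in place of 1. With 2 counts added, 0 were higher in footprints (1.67%). At a ratio of 1.5, 1 was higher in RNA (9.82%), and 5 were lower (8.40%) and 3 higher (7.58%) in footprints. At a ratio of 3, 0 were higher in footprints (0.483%) and 3 in translation efficiency (0.657%). The family 1 median in RNA was 0.06 and the family 3 median in footprints 0.02 with total counts.

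No paired analysis was possible because each group has 1 library, so no library was left out either. Intervals cover counting error and leave the spread between fish unknown. Footprint depth left 33 of 55 members unmeasured, so family 4 rests on 1 gene in footprints and family 3 on 2.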

Other observations

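The 5 P450 genes of other families that were lower in the mutant RNA library were cyp7a1, cyp8b1, cyp51, cyp46a1.4 and CYP27A1, and the 1 that was higher was cyp24a1. Related genes lay closer to equality, with cyp7b1 at 0.36, cyp27a1.4 at 0.15, cyp46a1.1 at -0.36 and cyp46a1.3 at -0.79. cyp7a1, the first enzyme of bile acid synthesis, had 639 sibling and 198 mutant counts, with a log2 ratio of -1.98 (-2.22 to -1.75). cyp8b1, the sterol 12-alpha-hydroxylase of the same pathway, had 512 and 291 (-1.11, -1.32 to -0.90), and cyp51, the lanosterol demethylase, 244 and 120 (-1.31, -1.65 to -0.997). cyp46a1.4 stood at -2.38 and CYP27A1 at -3.05. cyp24a1, which inactivates vitamin D, had 484 and 1266 RNA counts (1.09, 0.94 to 1.25) and 232 and 1182 footprint counts (0.93, 0.73 to 1.14). The retinoic acid hydroxylase cyp26b1 had 1111 and 2074 RNA counts (0.61, 0.50 to 0.71), cyp26c1 had 291 and 423 (0.24, 0.03 to 0.47) and cyp26a1 had 505 and 492 (-0.33, -0.51 to -0.15). Their footprint ratios were 0.72, 0.71 and 0.50. These genes were named after their values were seen.

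Of the loci in the RNA-seq data, 4 others bear names of mammalian family 2 enzymes and were no members under the rule. CYP2C3 and Cyp2j6 were in the footprint data as well. Member symbols had to be in lower case, whereas the other families were taken in either case, as with CYP27A1. The locus named CYP2B4, from a transcript assembler, had 335 and 239 counts (-0.78, -1.03 to -0.54), CYP2C3 had 47.3 and 4 (-3.70), Cyp2j6 had 20 and 2 (-3.33) and CYP2W1 had 2 and 8 (1.47, -0.62 to 4.98).

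The deposited KEGG annotation of the RNA table puts 8 members in linoleic acid metabolism, of which 5 of 6 measured genes were lower, and 9 in arachidonic acid metabolism, with 4 of 5 lower. It puts 2 in the metabolism of xenobiotics by cytochrome P450, with 0 of 2 lower. Of all measured members 26 of 39 were lower in RNA, and 6.16% of all genes. The annotation of the footprint data puts 12 members in linoleic acid metabolism, with 2 of 5 measured genes lower in footprints. It puts 8 in arachidonic acid metabolism, with 1 of 4 lower, beside 3.61% of all genes.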
